A study of Homo sapiens with 6 samples.

Results

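The genes examined here encode members of the ubiquitin-conjugating (E2) enzyme family. They were taken by name from a genome-wide CRISPRi screen for the amount of an opioid receptor that remained in cells after agonist. Members were the sgRNAs whose target gene name begins with UBE2 and a letter, except those against UBE2C, UBE2S, UBE2J1, UBE2J2, UBE2G2, UBE2M and UBE2F. The rule matched 280 listed sgRNAs, of which 140 had no read in any library and were left out. This gave 28 genes with 5 sgRNAs each, or 140 of the 104553 sgRNAs that had a read in any library. All 28 genes lay in sublibrary H23, so the comparison is that of the H23 top quartile with the H23 bottom quartile, each of which was 1 library without a replicate.

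In the screen, HEK293-FLP cells, a line from human embryonic kidney into which a transgene can be recombined, expressed a FLAG-tagged delta opioid receptor with the recycling sequence of the mu opioid receptor at its C terminus (DOR-MRS(WT)) and fused to the peroxidase APEX2. The same cells carried dCas9-KRAB with BFP, an inactive Cas9 joined to a repressor, which an sgRNA leads to a promoter that it then silences, and came from sorted clonal populations. Both quartiles held cells that took up the library at a multiplicity near 0.2 and were selected with puromycin at 0.75 μg/ml for 3 days, grown for 8 days, treated with 10 μM DADLE, an opioid peptide, for 90 min and reacted with Amplex UltraRed (AUR), which APEX2 turns fluorescent. The agonist and knockdown times are those of the sample labels. The paper's results also state 8 days of knockdown, but its methods give other times. There was no library of cells without agonist and none of unsorted cells, so that an effect on receptor synthesis and an effect on receptor loss after agonist cannot be told apart. The knockdown of the E2 genes themselves was not measured in these files.

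Ubiquitin is activated by an E1 enzyme, passed to the catalytic cysteine of an E2 and then, with the help of an E3 ligase, placed on a substrate or on another ubiquitin. The E2 often sets the kind of chain that is built. Chains linked through Lys48 are best known as the signal for the proteasome, whereas ubiquitin on the cytoplasmic face of membrane proteins, including Lys63-linked chains, marks cargo for the ESCRT machinery and the lysosome. Some members of the family carry ubiquitin-like modifiers instead, such as ISG15 (UBE2L6).

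An sgRNA acts through the promoter, and the letters of the sgRNAs were not read here. As an illustration of the stretches that such sgRNAs can address, the 120 bases before the transcription start are shown for the 3 members of lowest P that have a single start on the plus strand in the RefSeq-based promoter table (GRCh38.p14). Capitals mark GG, and CC for the opposite strand, the letters of the NGG motif that Cas9 needs beside its target. UBE2D2 lies at chr5:139561219-139561338, UBE2A at chrX:119574443-119574562 and UBE2QL1 at chr5:6448739-6448858.
UBE2D2: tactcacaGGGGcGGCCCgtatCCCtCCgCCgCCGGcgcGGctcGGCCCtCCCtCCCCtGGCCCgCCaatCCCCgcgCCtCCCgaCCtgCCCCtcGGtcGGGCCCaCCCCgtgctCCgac
UBE2A: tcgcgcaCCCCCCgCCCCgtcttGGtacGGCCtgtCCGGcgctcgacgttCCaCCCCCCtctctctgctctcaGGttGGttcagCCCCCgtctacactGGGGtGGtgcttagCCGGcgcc
UBE2QL1: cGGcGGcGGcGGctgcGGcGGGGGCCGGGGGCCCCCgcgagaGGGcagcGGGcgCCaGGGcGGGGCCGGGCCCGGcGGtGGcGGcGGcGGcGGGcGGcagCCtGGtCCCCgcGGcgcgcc

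These windows held 44, 31 and 48 NGG motifs on both strands, counted with overlaps, against a median of 24 in the same window of 35116 promoters, 99.97% of which held at least 1. Their share of G and C was 79.2%, 70.0% and 92.5%. Whether the sgRNAs of the library lie in these windows is not known, because no source used here names the genome build behind the positions. By the positions in their names, the 5 sgRNAs of a member spanned between 57 bp (UBE2Z) and 861 bp (UBE2D3), with a median of 434 bp. No member sgRNA was listed at the same position under another gene, and each of the 28 genes had 1 start site in the library. Of the 28 genes, 21 had an entry in the promoter table.

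The 140 sgRNAs were well covered. In the bottom quartile they had 349 to 3448 reads, with a median of 1314, and in the top quartile 350 to 3897, with a median of 1605. The 2 libraries held 40946430 and 47989659 reads in all. Each sgRNA received a phenotype, the log2 ratio of its read share among the brightest cells to its read share among the dimmest, on a scale where the 571 nontargeting control (NTC) sgRNAs of H23 have a median of 0. At a phenotype of 0, an sgRNA had 1.19 reads in the top library for each read in the bottom library, owing to the unequal depth. A positive phenotype means more sgRNA among the bright cells, or more receptor signal, and a negative phenotype means less. The phenotype of a member gene is the mean over its 5 sgRNAs.

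None of the 28 E2 genes was a hit, and none passed an adjusted p of 0.05 when its sgRNAs were set against the NTC sgRNAs in a Mann-Whitney test, two-sided and exact. Hits are genes whose score, made of phenotype and P, lies above a threshold at which fewer than 10% of the items are pseudogenes of 5 NTC sgRNAs. In H23 as a whole, 1.75% of 6014 genes were hits and 0.798% passed the adjusted p. At an unadjusted exact p under 0.05 there was 1 member, UBE2V2, or 3.57% of 28, where 8.60% of the H23 genes passed. In these H23 shares, a gene with several start sites was counted at the one of lowest P. The members, with 1 start site each, had no such choice. With sgRNAs pooled over start sites, 8.28% of the H23 genes passed the unadjusted p. With so few members, the counts of 0 lie near what the H23 shares of hits and of adjusted calls would give. The units of this test are sgRNAs within the 2 libraries of a single sort, so that it says nothing of the spread between cultures.

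The sgRNAs against most E2 genes were split between bright and dim cells much as the controls were. The gene phenotypes ran from −0.21 (UBE2A) to 0.32 (UBE2V2), with 19 positive, 9 negative and a median of 0.0099, beside a median of −0.0081 over all H23 genes. Of the 28, 20 lay within 0.1 of 0, or 71.4%, compared with 54.9% of the H23 genes. The interquartile range was −0.05 to 0.06 for the members and −0.10 to 0.08 for the H23 genes. An exact 95% interval for the shift of each gene against the NTC sgRNAs, obtained from the same test, held 0 for 27 genes and lay between −0.5 and 0.5 for 27 genes. The intervals reached down to −0.49 at UBE2A and up to 0.51 at UBE2V2. These intervals cover the spread over sgRNAs only, and the knockdown behind each value is unknown.

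The member with the most positive mean was UBE2V2, from the branch that builds Lys63-linked chains. UBE2N (Ubc13), the catalytic E2 of these chains, works as a pair with UBE2V1 or UBE2V2 (Mms2), relatives that lack the catalytic cysteine and orient the acceptor ubiquitin. The sgRNAs against UBE2V2 had 2246, 1542, 914, 740 and 1875 reads in the bottom quartile. In the top quartile the same sgRNAs had 2857, 2204, 1355, 1182 and 3078 reads. All 5 were thus more abundant in the top quartile than the depth alone would give, at phenotypes of 0.10, 0.27, 0.32, 0.43 and 0.47. Their mean was 0.32 ± 0.15 (SD over 5 sgRNAs), or 1.25-fold, with an exact Mann-Whitney p of 0.00248 and an adjusted p of 0.208. The interval of the shift was 0.12 to 0.51. UBE2V2 had the rank of 93 among the 6014 H23 genes by P, and 25 of the 2844 genes of positive mean had a lower P. Its score of 5.80 lay under the H23 threshold of 7.14. UBE2V2 was the 1 member with all sgRNAs positive, where 4.44% of the H23 genes with 5 sgRNAs had this pattern, and 3.43% of all H23 genes were positive at an unadjusted exact p under 0.05.

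The other genes grouped with this branch had sgRNAs of both signs. The sgRNAs against UBE2V1 fell into 3 near 0, at −0.09, −0.03 and 0.02, and 2 at 0.40 and 0.54, with 1004 and 632 reads in the bottom and 1575 and 1094 in the top quartile. The mean was 0.17 ± 0.28 (SD over 5 sgRNAs, exact p = 0.242). UBE2N itself had a mean of −0.08 ± 0.19 (SD over 5 sgRNAs, exact p = 0.353), with 4 sgRNAs between −0.21 and −0.05 and the fifth at 0.24. Its interval ran from −0.29 to 0.12. UBE2NL, a UBE2N-like gene on the X chromosome, had a mean of 0.09 ± 0.17 (SD over 5 sgRNAs, exact p = 0.428). It was placed here by its name, and whether it takes part in Lys63-linked chains was not examined. Differences between these 4 genes were not tested.

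UBE2A and UBE2B, the near-identical human homologs of yeast RAD6, serve RAD18 in the ubiquitination of PCNA and RNF20 and RNF40 in that of histone H2B. The sgRNAs against UBE2A had 1121, 1745, 2365, 1390 and 1416 reads in the bottom quartile. In the top quartile they had 901, 1487, 2508, 1585 and 1948 reads. The phenotypes were −0.56, −0.48, −0.16, −0.06 and 0.21, so that 4 sgRNAs leaned towards the dim cells and 1 towards the bright cells. The mean of −0.21 ± 0.32 (SD over 5 sgRNAs) was the lowest among the members, with an exact p of 0.145 and an adjusted p of 0.771. UBE2B had a mean of the opposite sign, 0.16 ± 0.27 (SD over 5 sgRNAs, exact p = 0.267), which rested on sgRNAs at 0.57 and 0.30 while the other 3 lay between −0.07 and 0.03. The intervals, −0.49 to 0.07 for UBE2A and −0.09 to 0.41 for UBE2B, overlapped.

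The UBE2D (UbcH5) enzymes work with a wide range of RING and HECT ligases and often place the first ubiquitin on a substrate. UBE2D2 had the highest mean of the 4, 0.17 ± 0.22 (SD over 5 sgRNAs, exact p = 0.143), with 2 sgRNAs at 0.36 and 0.44 and the others between −0.07 and 0.09. UBE2D3 had 0.05 ± 0.28, UBE2D4 0.03 ± 0.11 and UBE2D1 −0.05 ± 0.28 (SD over 5 sgRNAs each). The sgRNAs of UBE2D4 were the most alike of the family, between −0.12 and 0.16. The related UBE2E enzymes, which carry an N-terminal extension, had means of 0.0060 ± 0.22 (UBE2E1), −0.04 ± 0.19 (UBE2E3) and −0.15 ± 0.29 (UBE2E2; SD over 5 sgRNAs each). The value of UBE2E2 came from 1 sgRNA at −0.65, with 703 reads in the bottom and 532 in the top quartile, while its other 4 lay between −0.10 and 0.03. Of these 7 genes, 4 were positive and 3 negative, with a median of 0.0060 and exact p values of 0.143 or more.

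The E2 enzymes of Lys48-linked chains and of defined ligases had means near 0. UBE2K sets the Lys48 linkage by itself, UBE2G1 and UBE2R2, a paralog of CDC34, extend them on substrates of cullin-RING ligases, and UBE2H serves the CTLH ligase. Their means were 0.01 ± 0.33 (UBE2K), 0.03 ± 0.25 (UBE2G1), 0.0018 ± 0.45 (UBE2R2) and 0.0098 ± 0.24 (UBE2H; SD over 5 sgRNAs each). A mean near 0 did not mean like sgRNAs. Those of UBE2R2 spread most in the family, from −0.70, at 1114 reads in the bottom and 817 in the top quartile, to 0.54, at 854 and 1476 reads. UBE2K had 1 sgRNA at 0.58, the highest of all 140, and 4 between −0.23 and 0.02.

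UBE2L3 (UbcH7), which hands ubiquitin only to ligases with a catalytic cysteine of their own, such as parkin and the linear chain ligase LUBAC, had a mean of −0.03 ± 0.36 (SD over 5 sgRNAs, exact p = 0.728). Here 1 sgRNA lay at −0.65, with 535 and 406 reads, and the others ran from −0.0042 to 0.29. UBE2L6, the E2 of the interferon-induced modifier ISG15, had 0.0029 ± 0.15 (SD over 5 sgRNAs). UBE2T, which works with FANCL to modify FANCD2 in DNA crosslink repair, had 0.03 ± 0.19 (SD over 5 sgRNAs).

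The remaining members named here fall outside the groups above. UBE2Q1 had −0.11 ± 0.36 (SD over 5 sgRNAs, exact p = 0.297), with 4 sgRNAs between −0.44 and −0.05 and the fifth at 0.46. UBE2Q2 had 0.0059 ± 0.18 and UBE2QL1 0.13 ± 0.14 (SD over 5 sgRNAs each), and 4 of the 5 sgRNAs of UBE2QL1 were positive, between 0.11 and 0.30. UBE2W, which modifies the N terminus of substrates, had 0.05 ± 0.23, UBE2O, a large enzyme that acts as E2 and E3 in 1 chain, had 0.06 ± 0.17, UBE2Z, which takes ubiquitin from the E1 UBA6, had 0.07 ± 0.26, and UBE2U had −0.07 ± 0.20 (SD over 5 sgRNAs each). Each of these 7 genes had an adjusted exact p of 0.782 or more.

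At the level of sgRNAs, no member left the range of the controls. The 140 phenotypes ran from −0.70 to 0.58, inside the range that holds all but the lowest 1% and the highest 1% of NTC sgRNAs, −0.74 to 0.68. With sgRNAs taken as independent, the count of 0 of 140 allows a share of up to about 2.14% by counting error alone. The 5 sgRNAs of a gene share their target, so that this limit may be too low. Of the 32709 targeting sgRNAs of H23, 2.38% lay outside this range, 0.987% above it and 1.39% below it. Whether the members differ from this share was not tested. Positive and negative sgRNAs were nearly even, at 68 and 72. The SD over the 140 sgRNAs was 0.26, beside 0.28 for the NTC sgRNAs. The median SD within a gene was 0.24 among the members and 0.23 among the H23 genes. Counting error by itself came to a median of 0.0532 and at most 0.109 for a member sgRNA, so that sgRNAs of 1 gene differed by more than that. It treats PCR reads as independent molecules, which they are not without molecular identifiers, and holds no other error. In 27 of the 28 genes the sgRNAs had both signs. No member had all 5 sgRNAs negative, where 5.53% of the H23 genes with 5 sgRNAs did.

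The sgRNAs of the members were somewhat more abundant than the controls in both quartiles together, by their medians. The median was 2952 reads for the member sgRNAs, 2440 for the NTC sgRNAs and 2517 for all targeting sgRNAs of H23. By gene, the median over sgRNAs ran from 0.761 times the NTC median for UBE2G1 to 1.59 times for UBE2O, with UBE2V2 at 1.54. Without a library of the cells before knockdown, a loss of cells cannot be told apart from the starting abundance of an sgRNA.

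Genes that act before and beside the E2 enzymes were read from 10 lists of E1 enzymes, ligases, modifiers and other E2 or E2-like genes. The lists held 92 measured genes in all. Of these, 14 were in other sublibraries, 10 in H17 and 4 in H456, and their phenotypes come from the quartiles and NTC sgRNAs of those sublibraries. No gene outside the list of ubiquitin genes was a hit, and in that list RPS27A and UBB were hits. RPS27A, which encodes ubiquitin fused to a protein of the small ribosomal subunit, had −0.84 ± 0.36 (SD over 5 sgRNAs, adjusted exact p = 0.000228), and the polyubiquitin gene UBB had −0.37 ± 0.18 (SD over 5 sgRNAs, adjusted exact p = 0.144). None of the 10 E1 genes passed the adjusted p. Their median was −0.05, and SAE1, a subunit of the E1 of SUMO, had the lowest at −0.25 ± 0.27 (SD over 5 sgRNAs, exact p = 0.0452).

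In the lists of partners, no gene passed the adjusted exact p of 0.05. An unadjusted exact p under 0.05 was found for 8.6% of all H23 genes. The shares of the other sublibraries, from which some listed genes come, are not given here. The genes named from the lists, SAE1 among them, were picked for their low P. Of 11 RAD6 partners, 4 were positive and 7 negative with a median of −0.06, and RNF20, a ligase of histone H2B, had −0.37 ± 0.30 (SD over 5 sgRNAs, exact p = 0.0103 and 0.387 after adjustment). Of 7 partners of the Lys63 branch, 5 were positive with a median of 0.02, and TRAF2 had 0.23 ± 0.17 (SD over 5 sgRNAs, exact p = 0.0257 and 0.51 after adjustment). Of the 16 SUMO genes, 7 were positive and 9 negative with a median of −0.02. Beside SAE1, those at an unadjusted exact p under 0.05 were SUMO3 at 0.26 ± 0.12 and the SUMO ligase PIAS4 at 0.23 ± 0.13 (SD over 5 sgRNAs each; exact p of 0.00689 and 0.022). The 10 Fanconi anaemia genes had a median of −0.07, with FANCE at −0.28 ± 0.15 and FANCF at −0.32 ± 0.35 (SD over 5 sgRNAs each; exact p of 0.00787 and 0.0259). Among 15 ligases of the RING-between-RING type, LUBAC and ISG15 genes the median was −0.02, and ARIH2, a partner of neddylated cullins, had −0.30 ± 0.18 (SD over 5 sgRNAs, exact p = 0.00689). Among 11 CTLH genes, 7 of them outside H23 and 2 with fewer than 5 sgRNAs, the median was −0.02, with YPEL5 (H17) at −0.35 ± 0.19 and the substrate receptor GID4 (H23) at −0.23 ± 0.24 (SD over 5 sgRNAs each; exact p of 0.012 and 0.043).

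The 7 E2 genes that the naming rule left out were no hits either. They had a median of −0.07, with UBE2F, an E2 of NEDD8, at −0.47 ± 0.55 and UBE2G2, an E2 of ER-associated degradation, at 0.21 ± 0.15 (SD over 5 sgRNAs each; exact p of 0.0322 and 0.0301). The value of UBE2F held 1 sgRNA at −1.23, outside the range of all 140 member sgRNAs. Among all H23 genes, 8.6% had an unadjusted exact p under 0.05, the cut that UBE2F and UBE2G2 passed. The genes of E2 enzymes or E2-like proteins under other names, CDC34, BIRC6, AKTIP (H456) and UEVLD, had means between −0.05 and 0.09. The sgRNAs against UEVLD spread from −0.58 to 0.63.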

How the data were processed

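The authors amplified sgRNAs from genomic DNA of sorted cells (27 PCR cycles), trimmed reads to a length of 38 bp and tallied them by sgRNA in ScreenProcessing. The deposited values are raw counts for 209070 sgRNA rows per library. A gene belonged to the sublibrary with most of its reads, scaled to equal depth, and an sgRNA was kept with at least 10% of its reads there and at least 50 reads in at least one quartile (33280 sgRNAs in H23). If either count was 0, both were raised by 1. Quartiles follow the sample titles, which the last letters of the labels' library names contradict. Exact Mann-Whitney P (Benjamini-Hochberg over 18905 genes), a score (phenotype over the SD of the pseudogenes, without sign, times −log10 of the normal-approximation P), the 10% limit and seed 1 defined calls. Python 3.11.15, numpy 2.4.6, pandas 2.3.3 and scipy 1.17.1 were used, and edgeR 4.0.16 in R 4.3.3 for TMM factors only, since 1 library per quartile leaves no residual degrees of freedom. The procedure was tested on simulated data. The members, gene lists and the rule for naming members (all, with reads for those at an unadjusted P under 0.05 or at either extreme) were chosen with earlier results of these data known. PARK2, GID4 and GID8 were listed under 2 symbols each and measured under 1. One member and some partner genes are not reported singly here, though counts and medians over the lists include them.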

Additional observations from a re-analysis of the deposited data

Results flagged for a closer look

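Reads of the 140 member sgRNAs also appeared in the 4 libraries of the other sublibraries, where they take no part in any comparison. The H17 bottom and top libraries held 304 and 265 of them, and the H456 bottom and top libraries 1100 and 663. Per member sgRNA, the median was 2 reads in each H17 library, and 4 and 2.5 reads in the H456 bottom and top libraries. Reads of all H23 targeting sgRNAs made up 0.938% and 0.925% of the H17 libraries and 0.787% and 0.792% of the H456 libraries. In H456, 1 sgRNA against UBE2Z alone had 155 and 124 reads, while the next highest had 73 and 77. The cause was not tested.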

How the results depend on the processing

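Under 12 alternatives (read minimum, added count, centring, summary over sgRNAs, start sites, comparison set and depth), no member passed an adjusted exact p of 0.05, and the median phenotype of the members lay between −0.03 and 0.03. UBE2V2 stayed positive, between 0.28 and 0.41. Its adjusted exact p lay between 0.203 and 0.263, except without the strongest sgRNA of each gene, where it was 1. The number of members that were hits was 0 as reported and under all but 1 of 25 alternatives, which include 10 other pseudogene seeds. With the 35 olfactory receptor sgRNAs of H23, of 7 genes, as comparison set, it was 1 (UBE2V2), while 7.42% of the H23 genes were hits, and 23 member sgRNAs lay outside the 1st to 99th percentile of that small set, −0.48 to 0.31, as did 13.9% of the H23 targeting sgRNAs. The members at an unadjusted exact p under 0.05 became 2, UBE2V2 and UBE2Q1, without the strongest sgRNA of each gene, where 4.31% of the H23 genes passed. For UBE2Q1 the sgRNA left out was the one opposed to the other 4, and the mean was −0.25 with an adjusted exact p of 1. The sign of the mean changed in up to 14 members (without the strongest sgRNA). No paired analysis was possible because each quartile had 1 library. Counting error, with reads taken as independent, had a median of 0.0532 and the spread within a member gene a median of 0.24, and what limited the calls was not tested.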
